A study of Solanum lycopersicum with 10 samples.

Results

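This account covers 9 tomato (Solanum lycopersicum) genes that switch off or damp cytokinin signalling: 6 cytokinin oxidases/dehydrogenases and 3 type-A response regulators. The rule that picks them is a list of Solyc identifiers with no threshold on measured values, although the list was drawn up with earlier results of these data known. All 9 were found among the 35767 loci of the deposited table. Transcripts were measured by sequencing their 3' ends in 10 libraries of 4 groups, all of line M82. The root experiment used seedlings from plates kept at 22 °C under continuous light, 4 days after germination. They spent 3 h on 1 µM 2,4-D, a stable synthetic auxin, or were mock controls, and 1 cm of root tip was cut (2 libraries per group). The leaf experiment used greenhouse plants of 3 weeks, which received a spray of 1 µM picloram, also a synthetic auxin, or of mock for 3 h. From these, 15 primordia of leaf 5 at stage P5 were collected (3 libraries per group). The composition of the mock treatments and the number of plants behind a library are not given in the labels, so p-values measure the spread between these libraries, which may be technical.

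Cytokinins are adenine-derived hormones that promote cell division. Membrane histidine kinases perceive them and pass a phosphate through shuttle proteins to type-B response regulators, which are transcription factors. Type-A response regulators lack the DNA-binding part, are induced by cytokinin through the type-B proteins and damp the signal, as worked out mainly in Arabidopsis. Cytokinin oxidases/dehydrogenases cleave the side chain of the hormone and so inactivate it irreversibly. Auxin and cytokinin act against each other in the root meristem of Arabidopsis, and in tomato leaves cytokinin is known to prolong the activity of the leaf margin that forms leaflets.

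Values are gene counts as normalized by the authors, called normalized counts below. Library totals, in M normalized counts, were 2.83 to 2.96 in root and 1.83 to 2.06 in leaf, and 1 read was worth about 0.787 to 1.22 normalized counts. The first principal component, holding 81.6% of the variance, separated root from leaf libraries. Of 17 marker loci of green tissue, which encode light-harvesting proteins and the small subunit of Rubisco, all were above 0 in each leaf library and 3 to 9 were at 0 in each root library. Their summed level was 20410 to 21950 in mock leaf and 1007 to 1375 in root. No list of root markers was used.

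The 9 members differed in level and in whether they reached the minimum for a test. All 3 type-A response regulators reached 10 normalized counts in at least 2 libraries of both tissues, the minimum for testing a locus in a tissue. Of the 6 oxidases/dehydrogenases, 1 reached it in leaf and 0 in root. Thus 3 members were tested in root, 4 in leaf, and 5 in neither tissue. Of all 35767 loci, 12664 were tested in root, 14410 in leaf and 15761 in at least 1 tissue. The members as a set were thus tested in shares similar to those of all loci. Summed over the 6 oxidases, a library held 3.67 to 11.0 normalized counts in root, 25.0 to 39.9 in mock leaf and 10.2 to 24.0 in picloram leaf.

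**Figure D1:**
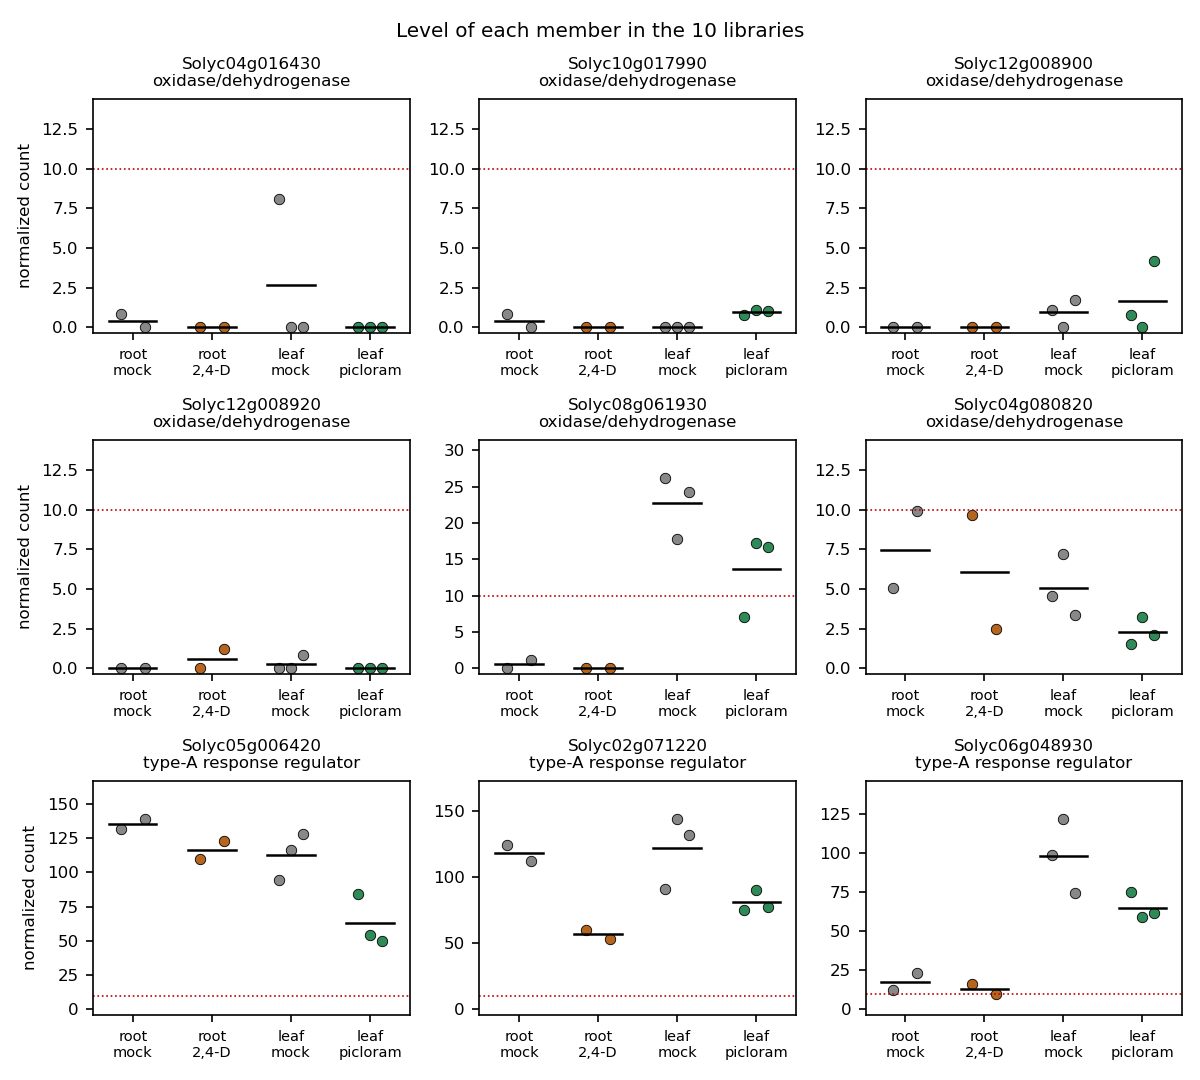
Normalized count (vertical axis, linear, own scale per panel) of each of the 9 members in the 10 libraries by group. Points are libraries, black bars are group means and the dotted red line marks the minimum of 10. The type-A response regulators stand at 9.91 to 144, while among the oxidases only Solyc08g061930 in leaf passes 10.

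Among the type-A response regulators, Solyc02g071220 fell in root tips on 2,4-D. The mock libraries held 124 and 112 normalized counts of it and the 2,4-D libraries 60.0 and 53.3. Both treated libraries were thus lower than both mock libraries, as for 27.4% of all loci tested in root. The mean on 2,4-D was 0.48 times that in mock. On the scale of log2(value + 1), used for all fold changes here, it changed by -1.05 ± 0.22 (SE, limma adjusted p = 0.019). It was the 1 member called of the 3 tested in root, against 1.07% of all 12664 tested loci called lower there, at a Benjamini-Hochberg adjusted p under 0.05. The fold change was between -1.13 and -0.96 when any 1 library was left out. The call itself ended without mock library 1 or 2 (limma adjusted p = 0.171 and 0.0802) and without 2,4-D library 1 or 2 (limma adjusted p = 0.129 and 0.202). It also ended after quantile normalization (limma adjusted p = 0.0638).

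In leaf primordia the same regulator stood at 91.0, 144 and 132 normalized counts in the mock group and at 75.1, 89.9 and 77.5 after picloram. The groups did not overlap, as for 15.3% of all loci tested in leaf in this direction, but the lowest mock library and the highest treated library were close. The change was -0.57 ± 0.18 (SE, limma adjusted p = 0.0687) and was not called, with a 95% interval of -0.97 to -0.18 before adjustment. Mock library 1 was the lowest of its group, and without it the change was -0.77 and passed (limma adjusted p = 0.00983). Over all alternatives the adjusted p ran from 0.00983 to 0.215.

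Solyc05g006420, the second type-A response regulator, fell in leaf primordia. Mock libraries stood at 94.2, 116 and 128 normalized counts and picloram libraries at 83.9, 54.2 and 49.9. All treated libraries were below all mock libraries, as for 15.3% of all loci tested in leaf, and picloram library 1 was nearest to the mock group. The mean after picloram was 0.556 times that in mock, a change of -0.86 ± 0.20 (SE, limma adjusted p = 0.0178). It was the 1 member called of the 4 tested in leaf, where 5.26% of 14410 loci were called lower. The fold change was between -1.09 and -0.72 when any 1 library was left out. The call ended without mock library 2 or 3 (limma adjusted p = 0.0565 and 0.0604) and without picloram library 2 or 3 (limma adjusted p = 0.0705 and 0.069).

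In root tips the mock libraries held 132 and 139 normalized counts of Solyc05g006420 and the 2,4-D libraries 110 and 123. The groups did not overlap, which held in this direction for 27.4% of all loci tested in root. The change of -0.22 ± 0.24 (SE, limma adjusted p = 0.743) was within the spread, and its 95% interval of -0.75 to 0.31 reaches nearly to the change measured in leaf.

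Solyc06g048930, the last of the type-A response regulators listed, was not called in either tissue. Leaf values were 98.6, 122 and 74.6 normalized counts in mock and 75.0, 59.1 and 61.6 after picloram. The highest treated library lay just above the lowest mock library, and the change was -0.57 ± 0.28 (SE, limma adjusted p = 0.242). In root it was low, and the 12.4 and 23.2 normalized counts of the mock libraries compare with 16.0 and 9.91 under 2,4-D. These groups overlapped, with a change of -0.40 ± 0.35 (SE, limma adjusted p = 0.659). Without mock root library 2 the change was 0.03, so its direction in root rested on that library.

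The summed level of the 3 type-A response regulators, given as a description, was 268 and 275 normalized counts in mock root against 186 in both 2,4-D libraries. In leaf it ran from 284 to 382 in mock and from 189 to 234 after picloram. In neither tissue did the sums of mock and treated libraries overlap. Among single loci tested, 27.4% in root and 15.3% in leaf did not overlap in this direction. All 3 fold changes were below 0 in root and in leaf, with medians of -0.40 and -0.57. Over all tested loci 52.1% of changes were below 0 in root and 49.8% in leaf, with medians of -0.02 and 0.

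Other transcripts moved in the same leaf libraries. The summed level of the 17 light-harvesting and Rubisco loci was 11940 to 14840 normalized counts after picloram, against 20410 to 21950 in mock leaf. As a share of the library total it was 0.637% to 0.812% against 1.05% to 1.10%. The part of this shift in the leaf values of the members was not tested. In such bulk samples, fewer cells of a type and less RNA per cell cannot be told apart.

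Of the cytokinin oxidases/dehydrogenases, Solyc08g061930 was the 1 member with enough signal to test, and in leaf alone. It stood at 26.2, 17.8 and 24.3 normalized counts in mock leaf and at 7.09, 17.2 and 16.7 after picloram. Each treated library was below each mock library, although mock library 2 and picloram library 2 were nearly equal. The mean was 22.8 ± 4.44 in mock and 13.7 ± 5.70 after picloram (SD, n = 3), and the change of -0.77 ± 0.43 (SE, limma adjusted p = 0.301) was not called. Its 95% interval was -1.71 to 0.17. Without picloram library 1, the lowest, the change was -0.39 (limma adjusted p = 0.665). With this oxidase, 3 of the 4 members tested in leaf had non-overlapping groups that were lower after picloram, as had 15.3% of all tested loci.

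In root tips the same oxidase was listed at 0 in mock library 1, at 1.12 normalized counts in mock library 2 and at 0 in both 2,4-D libraries. That is at most about the worth of 1 read, so no response of it was detectable in root at this depth.

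The other 5 oxidases/dehydrogenases stayed under the minimum in every library, and their values are given without a test. Solyc04g080820 was the one detected in all 10 libraries. Mock root libraries held 5.06 and 9.92 normalized counts of it and 2,4-D libraries 9.64 and 2.45, which overlap. In leaf it stood at 4.55, 7.23 and 3.34 in mock and at 1.56, 3.23 and 2.08 after picloram. The leaf groups did not overlap, by a margin smaller than the worth of 1 read.

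Solyc10g017990 was listed at 0 in all 3 mock leaf libraries and at 0.772, 1.08 and 1.02 normalized counts in the picloram libraries, about the worth of 1 read in each. In root it was above 0 in mock library 1 alone, at 0.852. Solyc12g008900 was listed at 0 in all 4 root libraries. In leaf it stood at 1.10, 0 and 1.73 in mock and at 0.79, 0 and 4.18 after picloram, with no order between the groups. Solyc12g008920 was above 0 in 2 libraries, at 0.842 in mock leaf library 3 and 1.22 in 2,4-D library 2, and 9 other loci had the same values in all 10 libraries.

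Solyc04g016430 reached 8.06 normalized counts in mock leaf library 1 and 0.852 in mock root library 1, and was listed at 0 in the other 8 libraries. Its mean in mock leaf, 2.69 ± 4.66 (SD, n = 3), therefore rested on 1 library. With no minimum on low values, none of these 5 oxidases was called by limma in either tissue. The smallest adjusted p among them was 0.111, for Solyc10g017990 in leaf (unadjusted p = 0.00998).

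**Figure D2:**
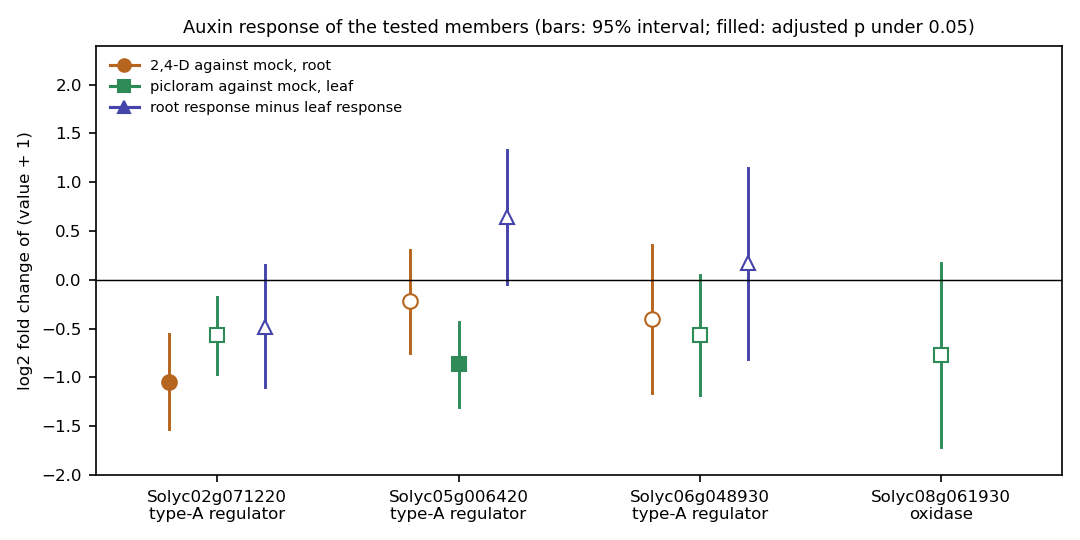
Log2 fold change of (value + 1) for the 4 members tested in at least 1 tissue, in root (2,4-D against mock), in leaf (picloram against mock) and for the difference of the responses. Bars are 95% intervals from limma and filled symbols have an adjusted p under 0.05. Every response lies below 0, and the filled ones are Solyc02g071220 in root (-1.05) and Solyc05g006420 in leaf (-0.86).

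Whether a member responded differently in the experiments was tested directly for the 3 type-A response regulators. The comparison covers tissue, compound, plant age, growth conditions and mode of application together. The root response of Solyc02g071220 minus its leaf response was -0.48 ± 0.29 (SE, limma adjusted p = 0.445, 95% interval -1.10 to 0.15). That of Solyc05g006420 had the opposite sign, at 0.64 ± 0.31 (SE, limma adjusted p = 0.331, 95% interval -0.04 to 1.33). For Solyc06g048930 the difference was 0.17 ± 0.45 (SE, limma adjusted p = 0.891). Thus limma called 0 of the 3, and 0 had an unadjusted p under 0.05, while 3.76% of 11313 loci were called in either direction. The calls in different tissues for the first pair are not shown to differ between the experiments, and the intervals leave room for differences of over 1 log2 unit.

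**Figure D3:**
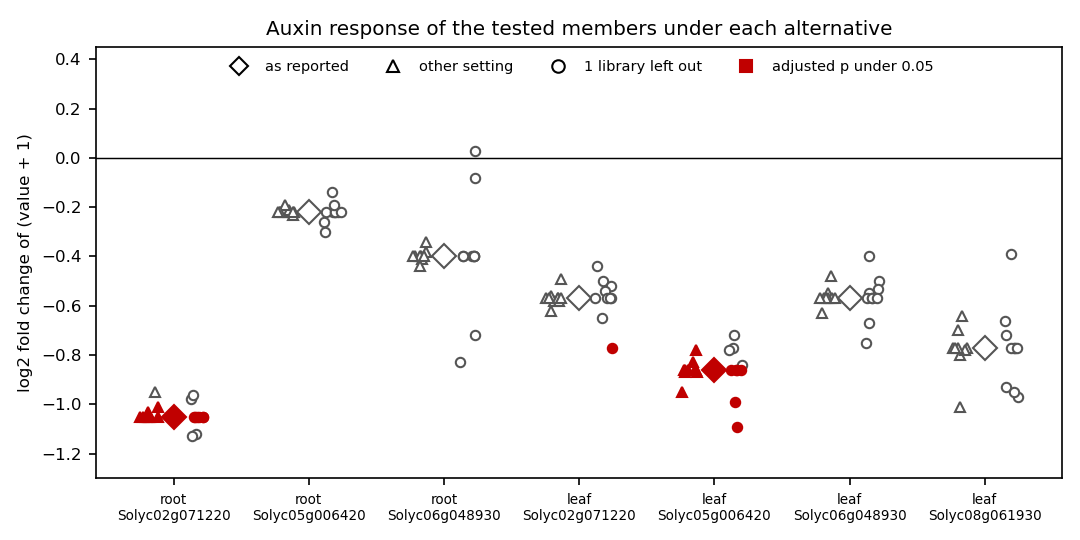
Log2 fold change of (value + 1) for each tested member in root and leaf under the settings tried. Diamonds are the values as reported, triangles other settings, circles fits with 1 library left out, and red marks an adjusted p under 0.05. The changes of Solyc02g071220 in root stay between -1.13 and -0.95 and those of Solyc05g006420 in leaf between -1.09 and -0.72, while red and open symbols mix.

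Baseline levels were compared between mock root tips and mock leaf primordia, experiments that also differ in plant age and growth conditions. Solyc06g048930 was lower in root, with 12.4 and 23.2 normalized counts against 74.6 to 122 in leaf. Its difference was -2.44 ± 0.32 (SE, limma adjusted p = 3.43e-05). The oxidase Solyc08g061930 had 17.8 to 26.2 normalized counts in mock leaf against 0 and 1.12 in mock root. It entered the fit only through leaf, where it is high, so this difference is given as a description with no test. Its size on the log scale is set by the pseudocount, at -4.01 with 1, -4.67 with 0.5 and -2.55 with 4. Calls between tissues were frequent, since 29.8% of 15761 loci were called lower in root and 62.5% were called in either direction.

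The other pair of type-A response regulators was not called between mock root and mock leaf. Solyc05g006420 averaged 136 ± 4.81 normalized counts in root (SD, n = 2) and 113 ± 17.3 in leaf (SD, n = 3), a difference of 0.28 ± 0.22 (SE, limma adjusted p = 0.297, 95% interval -0.21 to 0.76). With equal library totals it was -0.28 instead. Solyc02g071220 averaged 118 ± 8.09 in root (SD, n = 2) and 123 ± 28.0 in leaf (SD, n = 3), a difference of -0.03 ± 0.20 (SE, limma adjusted p = 0.913, 95% interval -0.47 to 0.41). It was called lower in root with equal library totals (-0.58, limma adjusted p = 0.02), a scaling that moved the median of all loci from 0.08 to -0.45.

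Across the 4 groups, Solyc02g071220 was highest in mock leaf (123) and mock root (118), which did not differ beyond their spread, then in picloram leaf (80.8), and lowest in 2,4-D root (56.7). Solyc05g006420 ran from mock root (136) over 2,4-D root (116) and mock leaf (113), neighbours that overlap or lie close, down to picloram leaf (62.6). Solyc06g048930 and Solyc08g061930 instead had both leaf groups above both root groups, with 98.5, 65.2, 17.8 and 12.9 for the regulator in the order mock leaf, picloram leaf, mock root and 2,4-D root. The oxidase stood at 22.8, 13.7, 0.559 and 0 in that order.

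Similarity of pattern was measured by Pearson's r of log2(value + 1) over the 10 libraries, across 11313 loci that reached the minimum in both tissues. For Solyc05g006420 the most similar loci were Solyc05g049950 (r = 0.964) and Solyc10g009070 (r = 0.942). The first averaged 758 and 660 normalized counts in mock and 2,4-D root and 578 and 332 in mock and picloram leaf. For the oxidase Solyc08g061930 they were Solyc07g052980 (r = 0.991) and Solyc12g100160 (r = 0.988), both higher in leaf. The oxidase itself did not reach the minimum in root, where it stood at 0 to 1.12 normalized counts. Its r values therefore include root libraries at or near 0. All r values share the same libraries, and over all tested loci the tissue contrast accounts for most of the variance among these libraries. For Solyc05g006420 itself the difference between mock tissues was 0.28 (limma adjusted p = 0.297) and was not called.

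The remaining cytokinin pathway was represented by 24 loci recalled from the tomato literature, which the files do not annotate, so their families are uncertain. Of these, 11 were tested in root and 15 in leaf. In root 1 rose and 0 fell, with a median change of 0.23, against -0.02 over all tested loci. In leaf 1 rose and 0 fell, with a median of 0.19, against 0. At an unadjusted p under 0.05 the counts were 2 in root and 6 in leaf, against 16.3% and 24.9% of all loci tested.

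Among the 4 further loci listed as type-A response regulators, 0 of 2 tested in root and 0 of 4 tested in leaf were called by limma. Solyc06g048600 averaged 88.7 ± 9.33 normalized counts in mock leaf and 49.3 ± 10.5 after picloram (SD, n = 3), a change of -0.85 ± 0.42 (SE, limma adjusted p = 0.237). Solyc10g079700 lay in the other direction, at 10.2 ± 2.15 against 22.8 ± 6.75 (SD, n = 3), with a change of 1.07 ± 0.33 (SE, limma adjusted p = 0.0609). Both are named after their values were seen. Over the 7 type-A loci, members and further ones together, 4 of 5 changes were below 0 in root and 5 of 7 in leaf, so the direction of the members did not extend to every locus listed in the family.

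Of 7 loci listed as type-B response regulators, the activators of the pathway, 5 were tested in root and 6 in leaf. Solyc01g065540 rose in leaf. It stood at 92.7, 74.1 and 90.0 normalized counts in mock leaf and at 160, 128 and 131 after picloram. Its change was 0.70 ± 0.14 (SE, limma adjusted p = 0.00925), and it was called under all alternatives tried (adjusted p 0.00714 to 0.0413). In this comparison 4.89% of all loci were called higher.

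In root the locus had 134 and 139 normalized counts in the mock libraries and 113 and 118 on 2,4-D, a change of -0.24 ± 0.17 that was not called (SE, limma adjusted p = 0.565). The difference between its responses was -0.94 ± 0.22 (SE, limma adjusted p = 0.0404), against 1.56% of loci called with the lower response in root, and this call ended without any 1 root library, without mock leaf library 2 and without any 1 picloram library (limma adjusted p = 0.0587 to 0.145). It also ended with no minimum on low values (limma adjusted p = 0.0542).

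Of 3 loci listed as histidine kinase receptors, 1 of 2 tested rose in root. The mock libraries held 129 and 102 normalized counts of Solyc07g047770 and the 2,4-D libraries 202 and 213. The change was 0.85 ± 0.21 (SE, limma adjusted p = 0.0401), where 3.48% of loci were called higher. The call ended without any 1 root library (limma adjusted p = 0.0932 to 0.282) or picloram library (limma adjusted p = 0.0539 to 0.06) and after quantile normalization (limma adjusted p = 0.107). In leaf its change was 0.18 ± 0.17 (SE, limma adjusted p = 0.558), and the difference between the responses was not called (0.67 ± 0.27, SE, limma adjusted p = 0.227).

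Of 5 loci listed as isopentenyltransferases, the enzymes that start cytokinin synthesis, 0 reached the minimum in root and 1 did in leaf, where Solyc12g014190 (named after its values were seen) averaged 13.9 ± 4.95 normalized counts in mock and 12.6 ± 3.44 after picloram (SD, n = 3). The other 4 stayed at or below 5.38 in every library. Of 5 loci listed as cytokinin response factors, transcription factors of the pathway, 2 were tested in root and 1 in leaf, and limma called 0 in both.

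**Figure D4:**
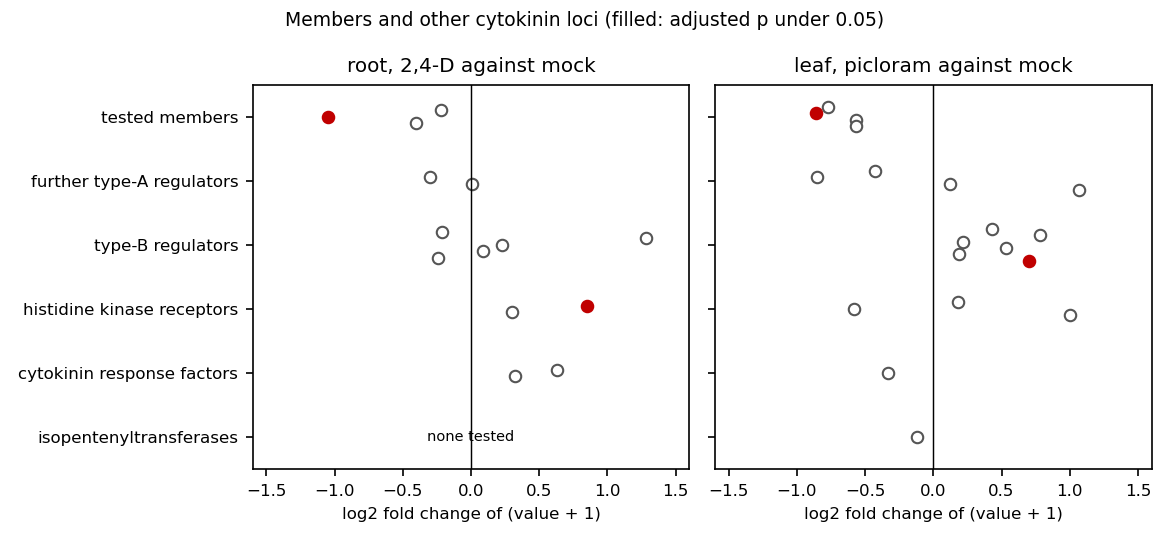
Log2 fold change of (value + 1) in root (left) and leaf (right) for the tested members and for 5 recalled lists of cytokinin loci, with 1 point per tested locus. Filled points have an adjusted p under 0.05. All tested members lie left of 0 in both tissues, and the filled points on the recalled lists lie right of it, at 0.85 in root and 0.70 in leaf.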

How the data were processed

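The authors deposited 1 table of normalized gene counts, a non-negative signal that is not whole, per the file headers with 1 column per library. The submitters' processing notes list Salmon 0.8.2 and DESeq2 but not what each did; build and annotation: not given in the sources used here. Near whole multiples of the value of 1 read (tolerance 0.1, up to 20 reads) lay 59.1% to 87.3% of low values per library, so reads could not be recovered and no count test was run.

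Tests used limma 3.58.1 in R 4.3.3 on log2(value + 1), with a mean-variance trend and 1 mean per group over all 10 libraries. The fit had 6 residual degrees of freedom plus 5.55 from the prior. On this scale the changes of low loci are understated. A locus was tested where 10 was reached in at least 2 libraries of the tissue (both tissues for the difference, either for the tissue comparison). P-values were 2-sided and adjusted over all loci tested. The rule for names took all 9 members, the loci of the recalled lists called for an auxin response and the 2 loci most similar to the highest member of each class. Loci named outside it are marked as such.

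The members, lists and minimum were chosen with earlier results of these data known. Families follow the list of members. The RefSeq gene table (SLM_r2.1, 41476 rows) holds 0 Solyc identifiers, and 4 of 6 oxidase identifiers name a chromosome that carries a RefSeq symbol of that family, while RefSeq gave 0 symbols to check the type-A members. Alternatives were 2 pseudocounts, 2 minimums, 3 scalings, a replicate block, robust moderation, each tissue alone and each library left out.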

Additional observations from a re-analysis of the deposited data

Results flagged for a closer look

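The locus Solyc01g065540, on the recalled list of type-B response regulators, drew attention because its responses in the experiments differed. The test of the difference gave -0.94 ± 0.22 on the log2(value + 1) scale (SE, limma adjusted p = 0.0404), the root response being the lower. That call was lost in 9 of 19 alternatives (limma adjusted p up to 0.145). Each 2,4-D library was below each mock root library, as for 27.4% of loci tested in root. The root change of -0.24 was not called (limma adjusted p = 0.565). In leaf the change of 0.70 was called (limma adjusted p = 0.00925). No member met a criterion for a closer look.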

How the results depend on the processing

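Of 20 alternatives (19 for the difference and the tissue comparison), those that left out no library kept the member called in leaf. In root, quantile normalization left 0 called. In the tissue comparison those that left out no library kept the call of Solyc06g048930, and Solyc05g006420 had a difference of -0.28 with equal library totals. Solyc08g061930 entered only through leaf and was absent with a minimum of 30, and its tissue difference is not counted as a call. With 1 library left out, the members called numbered 0 to 1 in root and 0 to 2 in leaf. The changes of Solyc06g048930 then ran from -0.83 to 0.03 in root and from -0.26 to 0.59 for the difference of responses, and the tissue difference of Solyc02g071220 from -0.23 to 0.10. Calls over all loci numbered 576 in root and 1463 in leaf, with 425 for the difference. Leaving out 1 library gave 90 to 669, 876 to 1594 and 167 to 473. Root calls numbered 327 after quantile normalization and 1141 with each tissue fitted alone. Each such fit applied the minimum to the remaining libraries alone, and a root group of 1 library was assumed to vary like the others. Other causes were not tested.

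Deviations from the group means of same-numbered leaf libraries correlated at 0.0725, -0.0266 and -0.0266, and leaf libraries did not all correlate best with their own number. In root, where groups of 2 give mirrored deviations and so 1 value, it was 0.108, which cannot show whether the numbers pair the libraries. With the replicate block, 519 loci were called in root, 1391 in leaf, 414 for the difference and 9885 between tissues (9855 without it). The block left the members called at 1 for 2,4-D, 1 for picloram and 0 for the contrast of these responses, as without it. Between tissues Solyc06g048930 kept its call, and Solyc08g061930 is again not counted. At this depth 5 oxidases stayed under the minimum in every library, and low expression and too few reads were not told apart.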
